A study of Homo sapiens with 30 samples.

Results

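The genes described here are 10 targets of fibroblast growth factor (FGF) signalling that damp or carry out the response of the extracellular signal-regulated kinases (ERK). They were taken by name, and all 10 were found among the 28307 genes of each count table. RNA-seq was made on H9, an established line of human embryonic stem (hES) cells, in 10 groups of 3 libraries, 30 libraries in all. The study asked how the long noncoding RNAs XIST and XACT and the protein SPEN act on the X chromosome in naive cells, which resemble the epiblast before implantation, and it included primed cells, which resemble the later epiblast. Primed WT cells grew without feeders. NaiveCult WT and PXGL WT cells were the same line reprogrammed to the naive state in 2 media on mouse fibroblast feeders. PXGL medium contains PD0325901, an inhibitor of the ERK kinase MEK, at 1 μM, while the contents of NaiveCult medium are not given in the sources used here. All other PXGL groups were therefore also kept with the MEK inhibitor.

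The XIST KO group was 1 homozygous clone, set against PXGL WT, and its 3 libraries were technical replicates by the study's account, unlike those of the other groups. Tests that use XIST KO therefore measure technical spread on that side, and their p-values may be too small. CRISPRi Dox was 3 clones carrying a dCas9-KRAB repressor aimed at XIST, given doxycycline at 1 μg/ml for 10 days, and CRISPRi UT was the untreated clones. No doxycycline-treated cells without the guide were included, so doxycycline and repression cannot be told apart. Naive cells were also transfected with a control siRNA (siScr), with 1 siRNA against SPEN (siSPEN1) or with a mix of 2 siRNAs against SPEN (siSPEN2), and collected at 48 h. XACT KO was 3 clones in NaiveCult medium with a 90 kb deletion over the XACT start sites, set against NaiveCult WT. The XIST groups, the siRNA groups, and the remaining groups (Primed WT, NaiveCult WT and XACT KO) each carried their own code in the file names, the meaning of which is not given, so for PXGL WT against Primed WT or NaiveCult WT that code and the state cannot be told apart.

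FGF ligands bind receptor tyrosine kinases, and the signal passes through RAS, RAF and MEK to ERK. ERK switches on genes for its own inhibitors as well as transcription factors, so transcripts of this set are widely used as a readout of pathway activity. DUSP6, DUSP4 and DUSP5 are phosphatases that remove the activating phosphates of ERK. SPRY1, SPRY2 and SPRY4 are Sprouty proteins that restrain receptor signalling, and SPRED1 and SPRED2 are relatives that restrain RAS and RAF. ETV4 and ETV5 are ETS-family transcription factors induced by FGF. Primed human cells are maintained with FGF2, whereas naive media commonly block MEK.

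The libraries held 31190052 to 65637976 counts, with 19590 to 21241 genes above 0. A count of 0 allows up to 3 counts, which was 0.0457 to 0.0962 CPM (counts per 1000000 counts of the library) depending on the library, for counting error only. All 9 naive markers (such as KLF17 and DNMT3L) were higher in both naive groups than in Primed WT, and all 8 primed markers were lower in NaiveCult WT and 7 of 8 in PXGL WT. In 0 of 15 libraries of the 5 perturbed groups did the targeted gene fail to lie below every control library. Of 6 fibroblast markers, COL3A1 was at 8.9, 10.2 and 16.3 CPM in NaiveCult WT, at 2.36, 8.07 and 2.86 CPM in XACT KO and at 0, 0 and 0.0163 CPM in PXGL WT. The markers did not move together: COL1A1 and COL1A2 were higher in Primed WT, grown without feeders, than in NaiveCult WT or PXGL WT.

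The start regions of the genes whose levels differed most and least between the states are shown because their transcripts are the readout compared below. RefSeq start windows (GRCh38.p14, 250 bases before to 50 bases after a start site) were matched for 6 of 10 genes, giving 10 windows. They were not matched for DUSP4, DUSP5, ETV4 and ETV5. DUSP6 (chr12:89352452-89352751, minus strand) and SPRY4 (chr5:142324198-142324497, minus strand) are the genes with the largest fall from Primed WT to PXGL WT. SPRY2 (chr13:80341077-80341376, minus strand) and SPRED2 (chr2:65432550-65432849, minus strand) are those with the smallest difference. Capitals mark a match on either strand to CCGGAA, a longer form of the ETS core GGAA. The core GGAA alone was not marked, and it occurs in the DUSP6, SPRY4 and SPRED2 windows.
DUSP6: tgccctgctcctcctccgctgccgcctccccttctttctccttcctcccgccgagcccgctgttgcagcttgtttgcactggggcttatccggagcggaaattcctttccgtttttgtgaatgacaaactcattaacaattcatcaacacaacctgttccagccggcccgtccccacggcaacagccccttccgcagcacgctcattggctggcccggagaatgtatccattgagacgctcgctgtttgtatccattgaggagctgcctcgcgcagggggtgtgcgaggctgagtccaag
SPRY4: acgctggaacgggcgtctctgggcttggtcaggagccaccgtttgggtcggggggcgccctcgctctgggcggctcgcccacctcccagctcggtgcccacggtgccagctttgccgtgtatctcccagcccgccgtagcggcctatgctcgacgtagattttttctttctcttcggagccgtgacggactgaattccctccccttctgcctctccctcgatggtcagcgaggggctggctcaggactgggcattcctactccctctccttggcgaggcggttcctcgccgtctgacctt
SPRY2: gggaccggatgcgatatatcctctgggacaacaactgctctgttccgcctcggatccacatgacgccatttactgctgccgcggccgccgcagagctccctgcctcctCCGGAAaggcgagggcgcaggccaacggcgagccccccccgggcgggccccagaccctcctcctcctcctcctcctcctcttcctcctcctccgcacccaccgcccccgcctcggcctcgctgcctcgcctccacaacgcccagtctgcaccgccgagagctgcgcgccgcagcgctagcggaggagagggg
SPRED2: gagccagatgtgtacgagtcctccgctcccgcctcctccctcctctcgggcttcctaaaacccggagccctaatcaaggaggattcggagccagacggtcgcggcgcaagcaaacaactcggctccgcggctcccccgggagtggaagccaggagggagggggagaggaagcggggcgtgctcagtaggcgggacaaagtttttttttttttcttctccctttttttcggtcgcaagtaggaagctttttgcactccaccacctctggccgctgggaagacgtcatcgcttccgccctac
Matches to CCGGAA lay in 2 of the 10 windows, the SPRY2 window above and the second window of SPRY1, while 17.2% of 35116 windows of the same length held 1. The AP-1 letters TGANTCA matched only the second window of SPRED2, against 7.71% of all windows, and the cyclic AMP response letters TGACGTCA matched none, against 1.85% of all windows. The RBPJ letters TGGGAA matched 1 window each of SPRED2, SPRY1 and SPRY2, against 24.0% of all windows. All motifs were searched on both strands, and a match is a description of the letters alone.

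Primed cells carried by far the higher levels. The 10 genes summed to between 2171 and 2265 CPM in the Primed WT libraries and to 48.6 to 114.7 CPM over the 27 naive libraries. DUSP6 alone made up 50.5% of the Primed WT sum and 0.0735% of the PXGL WT sum, where SPRY2 (35.1%), SPRED2 (24.3%) and ETV4 (18.5%) made up most of it. Per kilobase of merged exon, DUSP6 stood first in Primed WT at 290.8 ± 17.8 CPM per kb (SD, n = 3), followed by SPRY4 at 53.5 ± 4.05 CPM per kb, and SPRED2 stood last at 4.15 ± 0.48 CPM per kb. In PXGL WT SPRY2 stood first at 9.53 ± 0.31 CPM per kb. DUSP6 and SPRY4 were the last there, at 0.0167 ± 0.011 and 0.0146 ± 0.0072 CPM per kb, which overlapped.

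**Figure D1:**
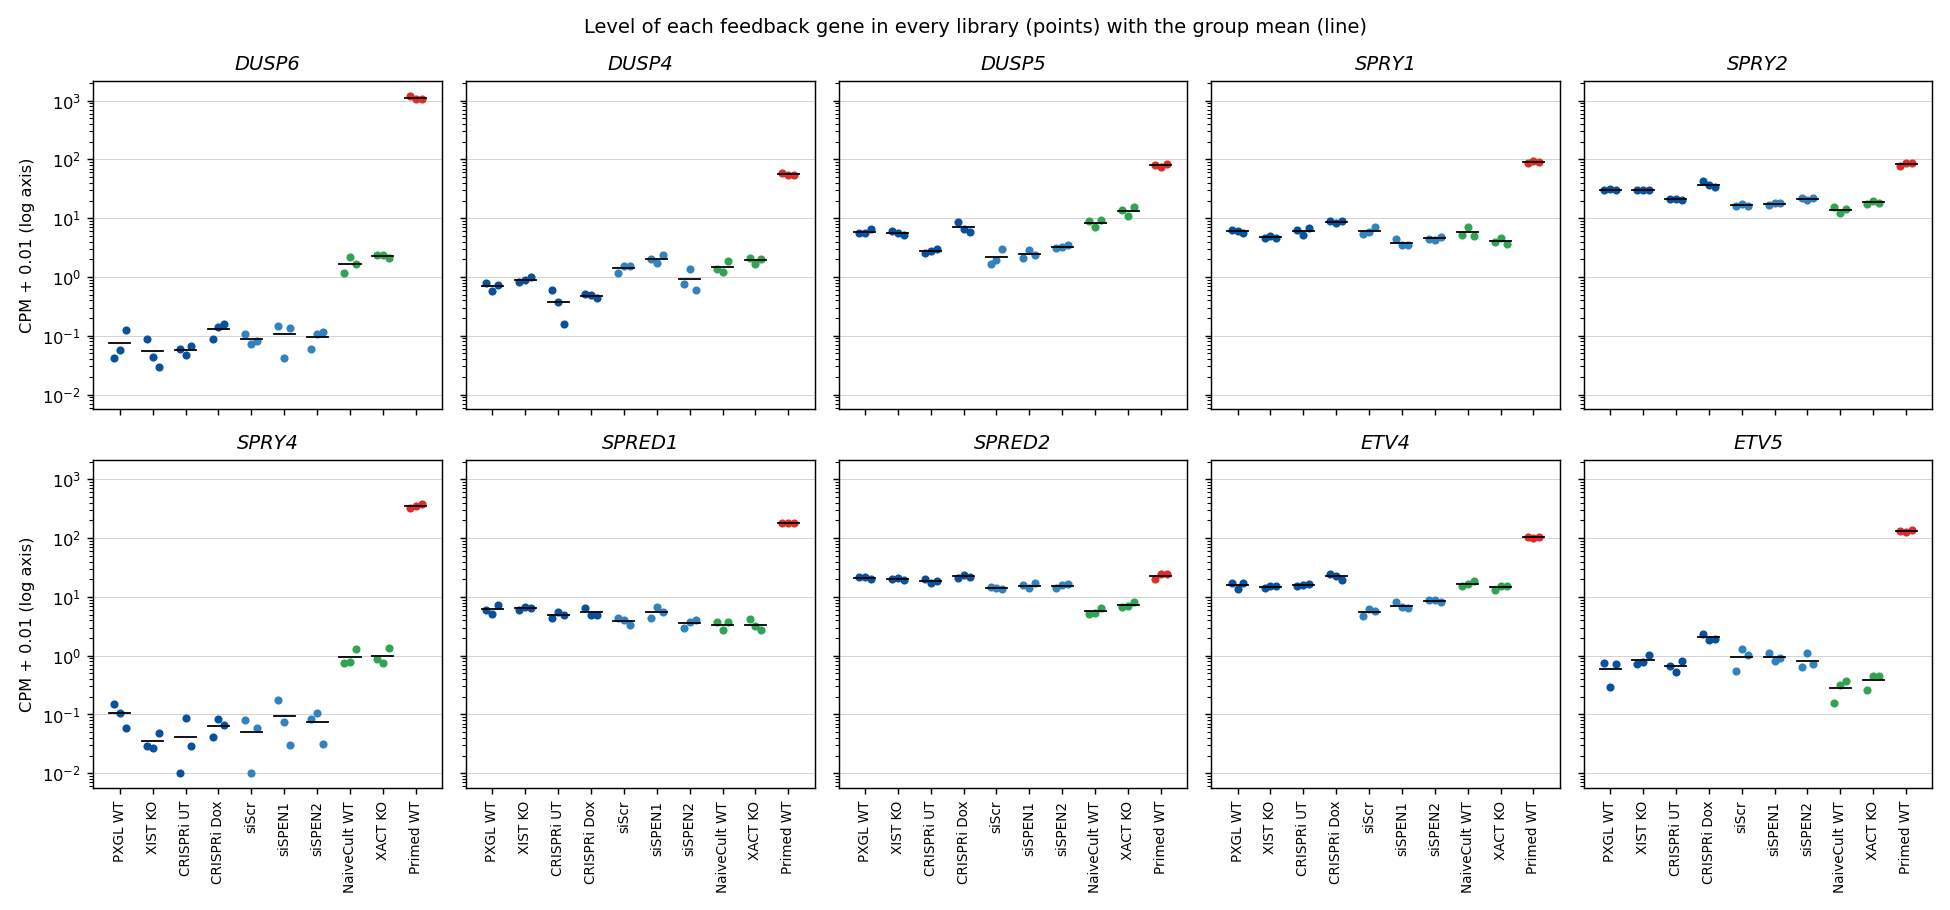
Level of the 10 feedback genes in every library (points) with the mean of each group of 3 libraries (line), as CPM + 0.01 on a log axis. Primed WT libraries (red) lie above every naive library for 9 genes, and SPRED2 is the exception; PXGL groups are blue, with siRNA groups in lighter blue, and NaiveCult groups green.

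Among the ERK phosphatases, DUSP6 (chr12:89347235-89352501, minus strand, hg38) was at 1202, 1077 and 1088 CPM in Primed WT. It was at 1.17, 2.18 and 1.67 CPM in NaiveCult WT and at 0.0318, 0.0474 and 0.114 CPM in PXGL WT, the last from 2, 2 and 7 counts. The 3 groups did not overlap, and PXGL WT held 0.00573% of the Primed WT level. From the pooled counts, Primed WT was 16960-fold above PXGL WT (95% exact interval 9479 to 33980, counting error only) and 666-fold above NaiveCult WT (583 to 765). DUSP4, on chromosome 8, was at 53.7 to 58.8 CPM in Primed WT, at 1.19 to 1.87 CPM in NaiveCult WT and at 0.569 to 0.794 CPM in PXGL WT. DUSP5 (chr10:110497907-110511533, plus strand) was at 75.5 to 84.6, 7.13 to 9.23 and 5.48 to 6.44 CPM in the same groups, again without overlap. CPM ranges did not overlap between Primed WT and NaiveCult WT for 85.4% of all tested genes, and between Primed WT and PXGL WT for 89.3%.

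Of the Sprouty genes, SPRY4 (chr5:142310427-142326455, minus strand) followed DUSP6 most closely. Its Primed WT libraries were at 325, 349 and 378 CPM, those of NaiveCult WT at 0.732, 0.767 and 1.31 CPM and those of PXGL WT at 0.143, 0.0948 and 0.0488 CPM. It was at 0 counts in 2 of 30 libraries, 1 each of CRISPRi UT and siScr, and the pooled ratio of Primed WT to PXGL WT was 3678 (2264 to 6435). SPRY2 (chr13:80335976-80341126, minus strand) was far less different between states: 76.9, 87.4 and 85.5 CPM in Primed WT, 15.3, 12.3 and 14.1 CPM in NaiveCult WT and 29.7, 31.7 and 30.5 CPM in PXGL WT. PXGL WT thus kept 36.8% ± 1.2 of the Primed WT level of SPRY2 (SD, n = 3), against 6.61% ± 0.33 for SPRY1 (chr4:123396795-123403760, plus strand).

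The pair of SPRED genes parted. SPRED1 (chr15:38252836-38357249, plus strand) was at 178 to 182 CPM in Primed WT, 2.74 to 3.68 CPM in NaiveCult WT and 5.07 to 7.28 CPM in PXGL WT. SPRED2 (chr2:65310851-65432637, minus strand) was at 19.8, 24.2 and 24.5 CPM in Primed WT and at 22.0, 21.6 and 19.8 CPM in PXGL WT, which overlapped, while NaiveCult WT lay below both at 5.15, 5.41 and 6.57 CPM. The ETS factors also parted: ETV4 (chr17:43527844-43579620, minus strand) in PXGL WT was at 15.4% ± 1.9 of its Primed WT level and ETV5 (chr3:186046314-186110318, minus strand) at 0.437% ± 0.19. ETV5 was at 132, 127 and 137 CPM in Primed WT, 0.146, 0.302 and 0.360 CPM in NaiveCult WT and 0.731, 0.285 and 0.715 CPM in PXGL WT. It shares 164 exon bases with DGKG on the same strand, where reads could not be assigned to 1 gene.

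In edgeR's quasi-likelihood test with Benjamini-Hochberg adjustment over all genes, "rose" and "fell" denote an adjusted p below 0.05. In NaiveCult WT against Primed WT, 10 of 10 genes fell, all past 2-fold, where 43.0% of 18663 tested genes fell and 28.4% fell past 2-fold. The log2 fold changes were −9.23 ± 0.13 (SE) for DUSP6 (adjusted p = 5.2e-16), −8.76 ± 0.17 for ETV5 (1.2e-14), −8.39 ± 0.13 for SPRY4 (1.1e-15) and −5.59 ± 0.11 for SPRED1 (1.3e-14). DUSP4 (−5.08), SPRY1 (−3.83), DUSP5 (−3.09), ETV4 (−2.48), SPRY2 (−2.43) and SPRED2 (−1.85) fell less. The median over the 10 was −4.45, against −0.013 over all genes tested. In PXGL WT against Primed WT, 9 of 10 fell, all past 2-fold, where 44.4% of tested genes fell and 29.1% fell past 2-fold. DUSP6 was at −13.80 ± 0.18 (2.6e-16), SPRY4 at −11.60 ± 0.17 (5.1e-16), ETV5 at −7.55 ± 0.15 (1.1e-14) and SPRY2 at −1.24 ± 0.07 (7.8e-10). SPRED2 did not pass, with a log2 difference of 0.10 ± 0.10 (adjusted p = 0.37) that ranged from −0.11 to 0.17 over the alternative settings. These 2 comparisons share the Primed WT libraries. Library totals in place of TMM moved the median of all genes by −0.15 in NaiveCult WT and by −0.21 in PXGL WT against Primed WT, and left these counts at 10 and 9. DESeq2 gave the same counts. In bulk RNA, fewer expressing cells and less RNA per cell cannot be told apart.

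**Figure D2:**
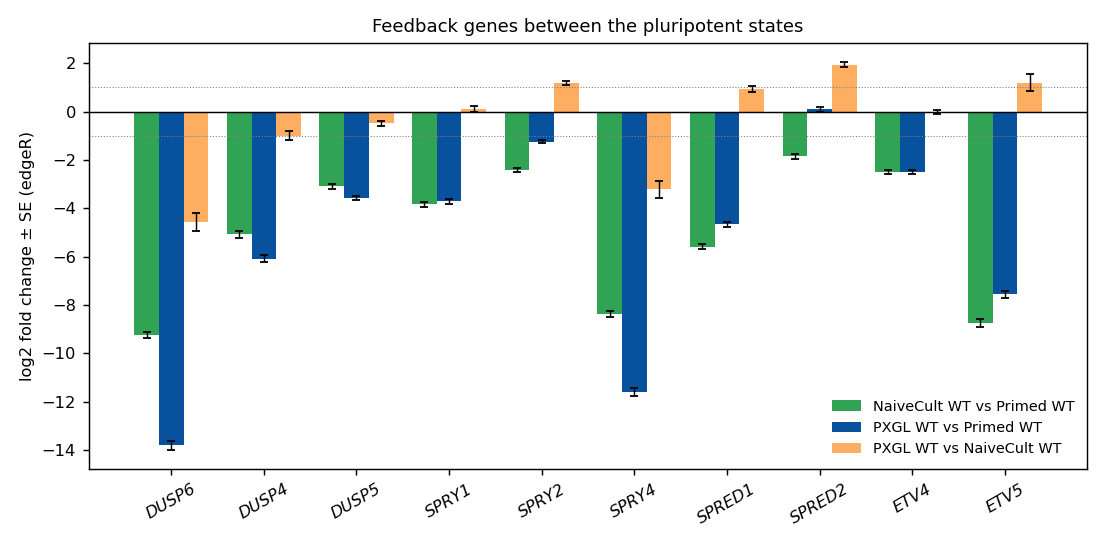
Log2 fold change (edgeR, error bars 1 SE, 3 libraries a group) of the 10 genes between the pluripotent states, with dotted lines at a 2-fold change. DUSP6, SPRY4 and ETV5 reach −7.55 or lower against Primed WT in both naive media, and SPRED2 is near 0 for PXGL WT against Primed WT.

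The naive media differed from each other in both directions. In PXGL WT against NaiveCult WT, 4 genes rose and 4 fell, where 35.7% and 34.9% of all tested genes did. SPRED2 (1.94 ± 0.11, adjusted p = 2.0e-09), ETV5 (1.20 ± 0.33, 0.0054), SPRY2 (1.19 ± 0.08, 7.6e-09) and SPRED1 (0.93 ± 0.12, 1.2e-05) rose, while DUSP6 (−4.57 ± 0.37, 9.0e-08), SPRY4 (−3.21 ± 0.36, 2.2e-06), DUSP4 (−1.0 ± 0.18, 0.00021) and DUSP5 (−0.48 ± 0.10, 0.00077) fell. SPRY1 and ETV4 did not pass and overlapped between the media. ETV5 overlapped as well, with PXGL WT down to 0.285 CPM and NaiveCult WT up to 0.360 CPM. Of the DUSP genes on the list of other ERK-responsive genes, DUSP7 (2.01) and DUSP2 (1.13) were higher in PXGL WT, DUSP1 (−0.48) was lower and DUSP9 (0.02, adjusted p = 0.88) did not pass. Of 6 fibroblast markers, COL1A1 rose (1.03 ± 0.18, 0.00013) and 5 fell. Summed, these markers were 16.1 to 28.3 CPM in NaiveCult WT and 3.27 to 3.88 CPM in PXGL WT. In XACT KO, kept in the same medium, they were 4.97 to 14.7 CPM and DUSP6 was at 2.07 to 2.38 CPM. The part of feeder RNA in these differences was not tested.

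The other layers of the pathway also differed between the states, in both directions. In PXGL WT against Primed WT, 43.1% of all tested genes rose beside the 44.4% that fell. Of 22 FGF family genes 16 were tested, and 11 fell and 5 rose in PXGL WT against Primed WT. The family list includes the intracellular FGF11, FGF12, FGF13 and FGF14, which are not secreted ligands. FGF4, an autocrine ligand of the early epiblast, was at 900 ± 24 CPM in PXGL WT and 477 ± 12 CPM in NaiveCult WT against 0.875 ± 0.15 CPM in Primed WT (log2 fold changes 10.2 and 9.22), while FGF20 was at 0 counts in all 6 of these naive libraries and at 0.255 to 0.809 CPM in Primed WT. Of 5 receptors, FGFR3 rose by 4.51 and 3.61 on the log2 scale in PXGL WT and NaiveCult WT, and FGFR1 fell by 3.09 and 3.14. Among 24 genes of the RAS, RAF, MEK and ERK chain, 23 were tested, and in PXGL WT against Primed WT 13 rose and 7 fell, with a median log2 change of 0.38. ARAF (2.33) and the scaffold KSR1 (1.69) rose, and the kinases RPS6KA3 (−1.85) and MAP2K1 (−1.66) fell. HRAS was listed at 0 in all 30 libraries, the cause of which is not known, so this is not read as absence of its RNA. Of 22 other ERK-responsive genes, 21 were tested and 14 fell and 7 rose, and ETV1, the third member of the ETV4 and ETV5 subfamily, fell from 201 ± 5.4 to 0.800 ± 0.13 CPM (log2 −7.77 ± 0.10, adjusted p = 1.7e-16).

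**Figure D3:**
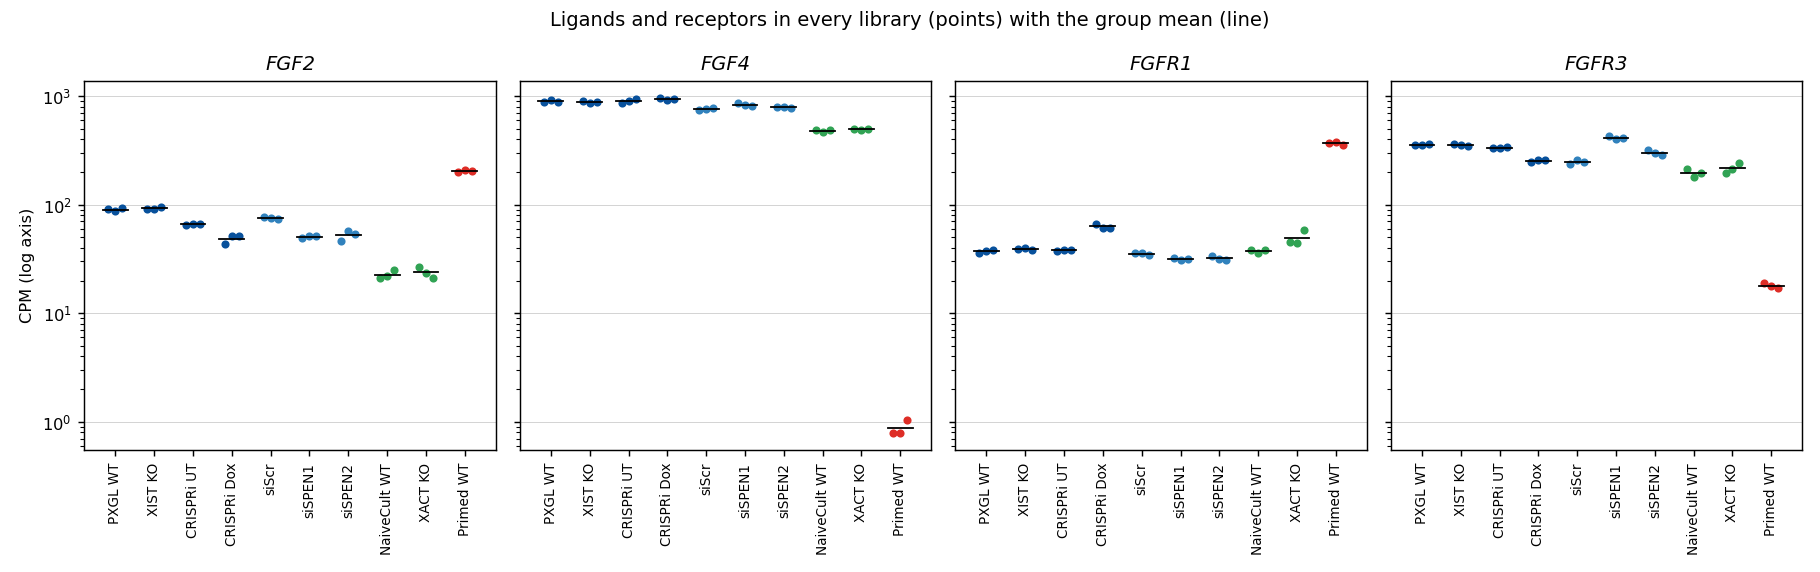
Level of FGF2, FGF4, FGFR1 and FGFR3 in every library (points) with group means (lines), as CPM on a log axis. FGF4 and FGFR3 are lower in Primed WT (red) than in every naive library, and FGF2 and FGFR1 are higher.

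In the CRISPRi clones, feedback genes were higher with doxycycline. Of 8 genes tested, 6 rose and 0 fell (0 at an unadjusted p below 0.05 and 0 with DESeq2), where 20.7% of 17286 tested genes rose and 18.9% fell. DUSP6 and SPRY4 were below the filter on low counts, with 2 to 8 and 0 to 4 counts a library in these groups. DUSP5 was at 2.52, 2.75 and 2.94 CPM in CRISPRi UT and at 8.63, 6.54 and 5.93 CPM in CRISPRi Dox, a log2 change of 1.35 ± 0.13 (adjusted p = 1.2e-07). ETV5 was at 0.650, 0.509 and 0.787 CPM against 2.34, 1.82 and 1.94 CPM, a change of 1.63 ± 0.26 (3.6e-05). These 2 were past 2-fold, as were 2.26% of tested genes. SPRY2 went from 21.2, 21.0 and 20.2 CPM to 42.2, 36.2 and 33.7 CPM (0.83 ± 0.06, 3.6e-09). SPRY1 (0.49 ± 0.10, 0.00047), ETV4 (0.48 ± 0.08, 7.3e-05) and SPRED2 (0.25 ± 0.06, 0.0039) also rose, and none of the 6 overlapped between the groups, as held for 44.6% of all tested genes. The median over the 8 tested genes was 0.48, against −0.00097 over all. Each of the 6 passed in all 13 settings tried.

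Of the 6 genes that rose, DUSP5 and SPRY2 in the untreated clones lay outside the range of PXGL WT, and SPRY1, ETV4, SPRED2 and ETV5 overlapped it. DUSP5 in CRISPRi UT lay below PXGL WT (5.48, 5.50 and 6.44 CPM) and in CRISPRi Dox overlapped it, and SPRY2 in CRISPRi UT lay below PXGL WT and in CRISPRi Dox above it. ETV5 in CRISPRi Dox lay above PXGL WT. These values are side by side with no test.

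The rest of the pathway was mixed under doxycycline. Of 5 receptors FGFR1 rose (0.72 ± 0.04, 9.1e-11) from 37.9 ± 0.59 to 63.2 ± 2.9 CPM and FGFR3 fell (−0.41 ± 0.03, 6.5e-09). Of 12 FGF family genes tested, 3 rose, FGF13 (0.54), FGF11 (0.44) and FGF12 (0.35), and 2 fell, FGF8 (−0.82) and FGF2 (−0.46). The 3 that rose encode intracellular members of the family, not secreted ligands, and the 2 that fell encode ligands. Of 21 other ERK-responsive genes tested, 4 rose and 8 fell, with a median of −0.28. The cell-cycle regulator CCND1 fell from 121 ± 3.4 to 54.0 ± 2.4 CPM (−1.18 ± 0.04, 1.2e-14), MYC fell (−0.80 ± 0.10) and the ephrin receptor EPHA4 rose (0.70 ± 0.16). Of 23 genes of the kinase chain tested, 3 rose and 6 fell. Markers of other states moved in the same contrast: of 9 naive markers 2 rose and 3 fell, KLF17 the most (−1.24), of 6 trophectoderm markers 3 rose, HAND1 the most (1.76), and 2 fell, and of 5 hypoblast and endoderm markers GATA4 (0.97) and PDGFRA (0.96) rose and GATA6 (−1.01) fell. The part of these marker changes in the rise of the feedback genes was not tested.

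In XIST KO against PXGL WT, 0 of 8 tested genes rose and SPRY1 alone fell (0 and 1 at an unadjusted p below 0.05, and 0 and 1 with DESeq2), where 6.94% and 5.99% of tested genes did. SPRY1 was at 6.24, 6.07 and 5.66 CPM in PXGL WT and at 4.59, 5.05 and 4.52 CPM in XIST KO, without overlap (as held for 37.2% of tested genes), a log2 change of −0.34 ± 0.10 (adjusted p = 0.032). Its adjusted p was 0.12 and 0.10 without PXGL WT replicate 1 and 2, and 0.11, 0.051 and 0.12 without XIST KO replicate 1, 2 and 3. SPRY2 was at 30.2, 30.2 and 30.1 CPM in XIST KO, and DUSP5 at 6.10, 5.49 and 5.07 CPM, overlapping PXGL WT. The difference between the 2 effects (XIST KO minus CRISPRi Dox) was itself tested in the same fit: 6 of 8 genes were lower, where 11.8% of tested genes were. Beyond the members, RPS6KA3, a gene of the kinase chain, rose in both contrasts (0.68 ± 0.08 in XIST KO and 0.55 ± 0.08 in CRISPRi Dox). FGF13 also rose in both (0.39 ± 0.05 in XIST KO and 0.54 ± 0.05 in CRISPRi Dox). Both genes are encoded on the X chromosome. By the study's account, most genes changed past 2-fold on loss of XIST lay there and were higher.

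**Figure D4:**
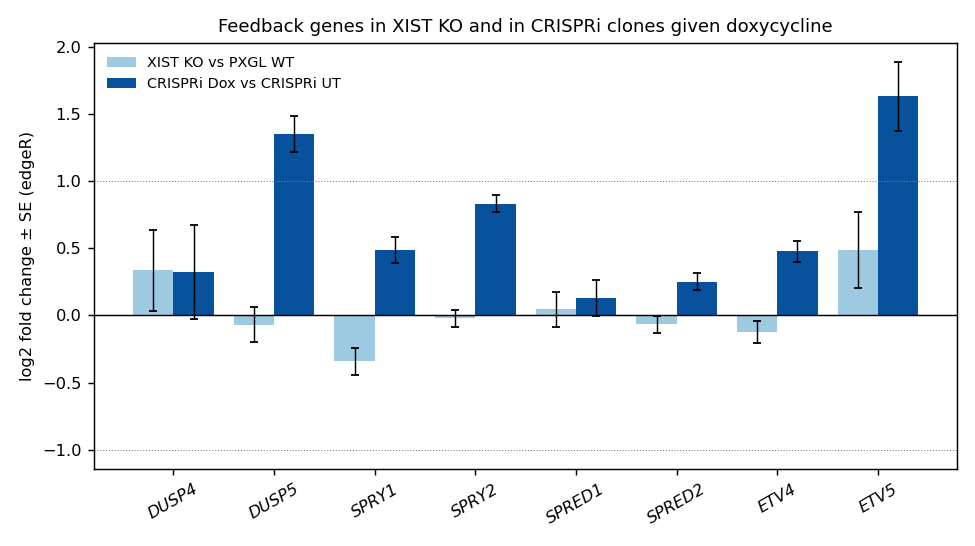
Log2 fold change (edgeR, error bars 1 SE, 3 libraries a group) of the 8 tested genes in XIST KO against PXGL WT and in CRISPRi Dox against CRISPRi UT, with dotted lines at a 2-fold change. Of the CRISPRi Dox bars, 6 are past the test, with DUSP5 and ETV5 past 2-fold, and SPRY1 alone passes in XIST KO.

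Transfection of siRNAs against SPEN, a corepressor bound by XIST, lowered SPEN by 1.01 ± 0.08 (siSPEN1) and 1.08 ± 0.08 (siSPEN2) on the log2 scale (adjusted p = 9.0e-10 and 4.1e-10). Both mixes are set against the same siScr libraries. In siSPEN1, SPRED1 and ETV4 rose and SPRY1 fell of 8 tested, where 20.8% of 16448 tested genes rose and 22.9% fell. In siSPEN2, ETV4, DUSP5 and SPRY2 rose and SPRY1 fell, where 20.5% rose and 20.7% fell. With 8 genes tested, these counts are not read as a property of the set. ETV4 was at 4.76, 6.20 and 5.75 CPM in siScr, at 8.19, 6.70 and 6.50 CPM in siSPEN1 (0.36 ± 0.12, adjusted p = 0.018) and at 8.83, 8.74 and 8.31 CPM in siSPEN2 (0.62 ± 0.12, 0.00020). SPRY1 was at 5.28, 5.87 and 7.08 CPM in siScr, at 4.43, 3.53 and 3.51 CPM in siSPEN1 (−0.66 ± 0.14, 0.00059) and at 4.37, 4.28 and 4.87 CPM in siSPEN2 (−0.44 ± 0.13, 0.012). For both genes neither mix overlapped siScr, as held for 50.4% of tested genes with siSPEN1 and 51.1% with siSPEN2.

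The other calls were held by 1 mix each. SPRED1 rose in siSPEN1 (0.49 ± 0.16, adjusted p = 0.018) and DUSP5 (0.55 ± 0.19, 0.026) and SPRY2 (0.36 ± 0.07, 0.00041) in siSPEN2. SPRED1 overlapped siScr, with the lowest siSPEN1 library at 4.29 CPM and the highest siScr library at 4.42 CPM. Between the mixes, DUSP4 (−1.19 ± 0.26, 0.0013) and SPRED1 (−0.63 ± 0.16, 0.0045) were lower in siSPEN2 and SPRY2 was higher (0.25 ± 0.07, 0.011), where 16.3% of tested genes were lower and 18.3% higher. DUSP4 was at 2.03, 1.73 and 2.33 CPM in siSPEN1, at 0.757, 1.36 and 0.588 CPM in siSPEN2 and at 1.14, 1.54 and 1.53 CPM in siScr. Several of these calls were lost when 1 library was left out. In siSPEN1 the adjusted p of SPRED1 was 0.095 without siScr replicate 3 and 0.11 without siSPEN1 replicate 2, and that of ETV4 was 0.11 without siScr replicate 1 or siSPEN1 replicate 1. In siSPEN2 that of DUSP5 was 0.14, 0.10, 0.050 and 0.082 without siScr replicate 1, siScr replicate 2, siSPEN2 replicate 2 and siSPEN2 replicate 3, and that of SPRY1 was 0.10 without siScr replicate 3 and 0.056 without siSPEN2 replicate 2. Between the mixes that of SPRY2 was 0.054 without siSPEN1 replicate 1 or siSPEN2 replicate 3.

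**Figure D5:**
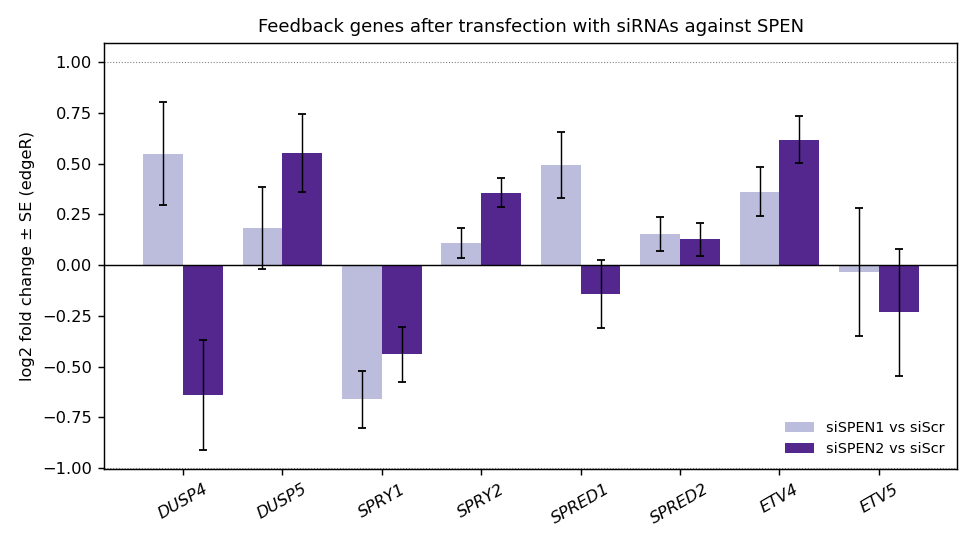
Log2 fold change (edgeR, error bars 1 SE, 3 libraries a group) of the 8 tested genes in siSPEN1 and siSPEN2 against siScr, with dotted lines at a 2-fold change. ETV4 is above 0 and SPRY1 below 0 with both mixes, and DUSP4 and SPRED1 point in opposite directions.

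Upstream of these genes, the receptors differed after transfection of siRNAs against SPEN. All 5 receptors passed with each mix, 4 higher and FGFR1 lower (−0.15 with each). Of all tested genes, 20.8% rose and 22.9% fell in siSPEN1, and 20.5% rose and 20.7% fell in siSPEN2. FGFR4 overlapped siScr in siSPEN1. FGFR3 was at 0.75 ± 0.05 in siSPEN1 and 0.27 ± 0.05 in siSPEN2, and FGFR2 at 0.56 and 0.39. FGF2 fell with both (−0.57 and −0.54). Of 23 genes of the kinase chain tested, 6 rose and 11 fell in siSPEN1, and 5 rose and 8 fell in siSPEN2. MAPK3, which encodes an ERK itself, rose with both mixes (0.65 and 0.76). The adaptor FRS2, which links receptors to RAS, fell in siSPEN2 (−0.90 ± 0.06, adjusted p = 1.1e-10) and not in siSPEN1 (−0.06 ± 0.06, 0.40), and the mixes differed (−0.84 ± 0.06, 4.9e-10). Of 21 other ERK-responsive genes tested, 8 rose and 6 fell in siSPEN1, and 8 rose and 4 fell in siSPEN2. The ERK phosphatase DUSP9, encoded on the X chromosome, rose from 12.6 ± 1.2 CPM to 28.3 ± 2.0 CPM (1.17 ± 0.08, 1.5e-10) and 24.0 ± 1.2 CPM (0.91 ± 0.08, 8.0e-09). ETV1 rose in siSPEN1 (1.04) and fell in siSPEN2 (−0.98). Of 5 primed markers tested, 0 rose and 3 fell in siSPEN1 (median −0.21), and 3 rose and 2 fell in siSPEN2 (median 0.32), with CD24 (−1.35 and −1.17) lower in both. ZIC2 (0.56), SALL2 (0.42) and OTX2 (0.32) rose in siSPEN2.

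Deletion at XACT was accompanied by 1 call. XACT itself fell by 4.63 ± 0.52 on the log2 scale (adjusted p = 0.0037). DUSP5 rose, 1 of 10 genes tested, where 0.206% of 16472 tested genes rose and 0.219% fell. It was at 8.83, 7.13 and 9.23 CPM in NaiveCult WT and at 13.6, 11.1 and 15.2 CPM in XACT KO, without overlap, as held for 23.6% of tested genes (0.67 ± 0.14, adjusted p = 0.044). The adjusted p was 0.12 without NaiveCult WT replicate 2, 0.16 and 0.17 without XACT KO replicate 1 and 3, and 0.054 with library totals. SPRY2 (17.6, 19.5 and 18.5 CPM against 15.3, 12.3 and 14.1 CPM) did not overlap either, with a difference of 0.42 ± 0.10 (adjusted p = 0.064). DUSP6 was at 2.31, 2.38 and 2.07 CPM, overlapping NaiveCult WT. None of the tested FGF family genes, receptors, chain genes or other ERK-responsive genes passed edgeR's test. At an unadjusted p below 0.05, 2 FGF family genes, 2 receptors, 2 chain genes and 2 other ERK-responsive genes were higher. Lower were 1 FGF family gene, 1 receptor and 2 other ERK-responsive genes. The summed fibroblast markers lay lower in XACT KO (4.97 to 14.7 CPM) than in NaiveCult WT (16.1 to 28.3 CPM), and their part in the DUSP5 difference was not tested.

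Across the 10 group means, the 36 pairs of genes that leave out SPRED2 correlated with Pearson's r from 0.686 to 0.998 (log2(CPM + 1)), and the 9 pairs with SPRED2 from 0.036 to 0.686, a description in which the Primed WT point weighs heavily. Across the 7 PXGL groups alone, among the 15 pairs of the 6 genes with a median of at least 1 CPM there (DUSP5, SPRY1, SPRY2, SPRED1, SPRED2 and ETV4), DUSP5 and SPRY2 were the closest pair (r = 0.992), followed by SPRED2 and ETV4 (0.966) and SPRY2 and SPRED2 (0.942), while SPRY1 and SPRED1 were the least alike (0.081). Groups that share a file code or a parent clone are not independent points. The genes outside the set whose 10 group means were most like the mean profile of the set were KCNMA1 (r = 0.9955), SNX22 (0.9949), PAQR5 (0.9947), CEP126 (0.9946), ZMAT1 (0.9942), CENPVL3 (0.994), TTC39C (0.9938) and NOS1AP (0.9938). PAQR5, for example, was at 60.5 CPM in Primed WT and 0.879 CPM in CRISPRi Dox against 0.412 CPM in CRISPRi UT. Of 14715 genes ranked, 864 (5.87%) had an r above 0.95.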

How the data were processed

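Stranded, ribosome-depleted RNA-seq was measured in 30 libraries of H9 cells. The authors deposited raw read counts per gene for each library. Per the labels and the study's methods, reads were trimmed (Trim Galore 0.6.5), aligned with Bowtie 2 to human and mouse genomes (hg38 and mm10), deduplicated (Picard 2.23.5), filtered at a mapping quality of at least 10 and for mouse reads (XenofilteR), and counted by strand with htseq-count 0.13.5. Deduplication by position can cap the counts of abundant genes, and feeder reads left after filtering would be counted as human.

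Counts were used as deposited. Genes were kept by filterByExpr (minimum count 10, total 15) and tested with edgeR 4.0.16 (TMM, quasi-likelihood F test, Benjamini-Hochberg over all genes kept) in 4 fits: the XIST groups (12 libraries), the siRNA groups (9), NaiveCult WT with XACT KO (6) and Primed WT, NaiveCult WT and PXGL WT (9). For 9 comparisons alternatives were DESeq2 1.42.0, its size factors, library totals, other filters, a replicate block, other libraries in the fit and leaving out each library. The edgeR steps were tested on simulated data. CPM used the library total, and lengths were merged GENCODE 44 exons. An exact permutation test of 3 against 3 cannot go below 0.1. The study describes the RNA-seq replicates as biological, apart from XIST KO, whose 3 were technical, so p-values that use XIST KO may be too small. Same-numbered replicates did not deviate together (r from −0.066 to 0.068), so numbers were not used to pair libraries.

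The members and lists were chosen with earlier results of these data known. All 10 members are named, with up to 4 genes of each list by largest log2 change among those past the test without overlap, and the 8 genes of most similar profile.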

Additional observations from a re-analysis of the deposited data

Results flagged for a closer look

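For 6 feedback genes the effect of XIST KO differed from that of doxycycline in the CRISPRi clones, where doxycycline and repression of XIST cannot be told apart. The XIST KO libraries were technical replicates, so the p-values may be too small. The log2 effect of XIST KO minus that of CRISPRi Dox was −1.42 ± 0.19 for DUSP5 (adjusted p = 1.7e-05, edgeR interaction term), −0.85 ± 0.09 for SPRY2 (1.2e-06), −0.83 ± 0.14 for SPRY1 (0.00030), −0.60 ± 0.11 for ETV4 (0.00076), −1.15 ± 0.38 for ETV5 (0.037) and −0.32 ± 0.09 for SPRED2 (0.017). Each was flagged because this test of the difference itself was passed. The differences of DUSP5, SPRY1, SPRY2 and ETV4 passed in all 18 settings. That of SPRED2 had an adjusted p of 0.059, 0.056 and 0.050 without CRISPRi UT replicate 2, PXGL WT replicate 1 and PXGL WT replicate 2. That of ETV5 passed in 11 of 18 settings, with an adjusted p of 0.071 and 0.097 without CRISPRi UT replicate 1 and 2, 0.077 without CRISPRi Dox replicate 1, 0.13 and 0.12 without PXGL WT replicate 1 and 3, and 0.085 and 0.083 without XIST KO replicate 1 and 2.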

How the results depend on the processing

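No result reversed. Of 270 recomputed counts of genes called, 250 were within 1.5 times the count reported, and of 693 recomputed single-gene results, 662 kept direction and call and 31 kept direction and lost the call. In siSPEN2 against siScr 2 genes were lower in place of 1 with no filter on low counts. In XACT KO against NaiveCult WT the count of genes higher was 2 with DESeq2, 2 with no filter, 2 with the replicate block and 0 with library totals, in place of 1. The cause was not tested. With 1 library left out, genes lower ranged from 0 to 1 in XIST KO and from 0 to 2 in siSPEN2 against siScr. Genes higher ranged from 1 to 2 in siSPEN1 and from 2 to 3 in siSPEN2 against siScr, from 0 to 1 in siSPEN2 against siSPEN1, from 0 to 2 in XACT KO and from 4 to 5 in PXGL WT against NaiveCult WT, and the difference of effects from 4 to 6. CRISPRi Dox stayed at 6 and the naive groups against Primed WT at 10 and 9. Replicate numbers share no more than a number, and the replicate block moved no other count by over 1.5 times and lost no call. DUSP6 and SPRY4, with at most 9 counts a library in the PXGL groups, were too low there to show a fall: with no filter their adjusted p was 0.22 or higher.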
